A study of Mus musculus with 7 samples.

Results

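The 9 genes described here encode transcription factors of the sine oculis homeobox family (Six2, Six3, Six4, Six5 and Six6) and their coactivators of the Eya family (Eya1, Eya2, Eya3 and Eya4). They were taken by symbol from a table of 47729 mouse genes, in which each had 1 row. RNA was sequenced from surface ectoderm of E12.5 mouse embryos, in 4 libraries of miR-205 knockout embryos (replicates 1 to 4) and 3 libraries of wild type embryos (replicates 2, 3 and 4). Neither the strain of the mice nor the way the knockout allele was made is stated in the labels. The ectoderm between eye and brain was cut from stained frozen sections by laser, and each library pooled 3 embryos, so that the spread between libraries is a spread between pools.

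The proteins of the sine oculis family, Six2 to Six6 among them, bind DNA through a homeodomain. Eya proteins do not bind DNA themselves: they are recruited by sine oculis family proteins, activate transcription and carry a tyrosine phosphatase domain. With Pax and Dach proteins they form a network used again and again in sense organs, muscle and kidney, and they mark the preplacodal ectoderm from which lens, nose and inner ear arise. The study asked what loss of the epithelial microRNA miR-205 does to ectoderm of the region where the lacrimal gland, the tear gland, forms. A microRNA binds messages through its seed and lowers them.

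The seed of the lost microRNA decides which messages it can bind directly, so it is shown first, with its bases 2 to 8 in capitals. The mature sequence, from RefSeq (GRCm38.p6), lies on the minus strand at chr1:193507503-193507524.
mmu-miR-205-5p: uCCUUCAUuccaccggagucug
A full seed match in a message reads ATGAAGG. Each gene was searched in its longest 3′ UTR in GENCODE M21 (GRCm38), on the message strand alone, and 0 of the 9 held it. Among 13541 tested genes with a 3′ UTR of at least 30 nt, 12.4% did. A weaker match, TGAAGGA, pairs with bases 2 to 7 and has an A opposite base 1, and it shares its first 6 letters with the full match. It was counted where it was not part of a full match, and 3 of the 9 genes held it once, against 13.0% of the 13541 genes. Among 3′ UTRs within 1.2-fold of the length of the gene's own, 18.0% held it for Six3, 21.9% for Six6, 23.6% for Eya3 and, for Six4, which holds none, 40.4%. The 3 matches are shown with the 15 bases before them, the match in capitals, all on the plus strand of the genome.
Six3: gagtcccttagtttcTGAAGGA
Six6: tcgcattgcttttccTGAAGGA
Eya3: gaaggcagtccttacTGAAGGA
The capitals of Six3 lie at chr17:85625906-85625912, those of Six6 at chr12:72942017-72942023 and those of Eya3 at chr4:132723773-132723779. Eya2 had the shortest 3′ UTR of the 9 genes, 613 nt, and Six4 the longest, 5170 nt. Of 3′ UTRs within 1.2-fold of the length of that of Six4, 60.7% held at least 1 of the 2 matches, and of those within 1.2-fold of that of Eya2, 11.6% did. A missing match says only that these letters are not in these windows.

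**Figure D1:**
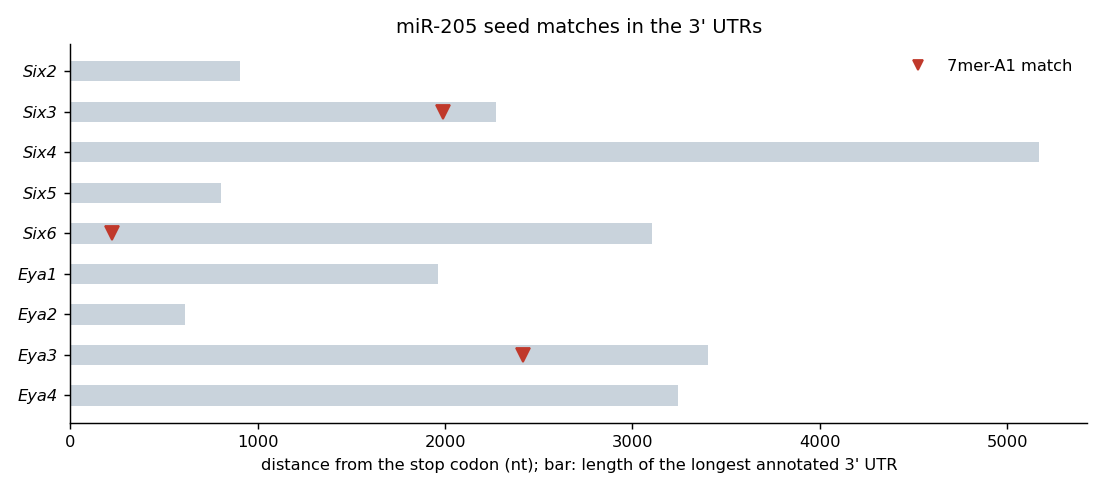
For each gene, the length of its longest 3′ UTR (bars, nt from the stop codon) and the place of the weaker miR-205 seed match (triangles). Six3, Six6 and Eya3 hold 1 match each, at 1987, 222 and 2414 nt from the stop codon, and the other 6 genes hold none.

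All 9 genes were detected in all 7 libraries, with 13 reads or more each. The libraries held 8903523 to 12504790 reads over 19318 to 20713 genes; knockout replicates 1 and 2 and wild type replicate 2 were each under 10000000. Values below are normalized counts, reads divided by the authors' size factor of the library. To compare genes with each other, they were divided by the length of all annotated exons of the gene and are then normalized counts per kb.

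Six2, Eya2 and Six5 stood highest per length and Six3, Six6 and Eya4 lowest. Six2 averaged 713 ± 436 counts per kb in knockout (SD, n = 4) and 355 ± 127 in wild type (SD, n = 3). Eya2 averaged 405 ± 42.7 per kb in knockout and 317 ± 21.3 in wild type. Six5, a gene next to the muscle kinase gene Dmpk, followed with 93.6 ± 10.1 per kb in knockout and 92.6 ± 21.1 in wild type. Next came Eya3 with 49.9 ± 2.43 per kb in knockout and 47.1 ± 1.86 in wild type, and Six4 with 31.5 ± 3.69 in knockout and 29.8 ± 5.05 in wild type. Eya1 had 25.5 ± 20.7 per kb in knockout and 13.8 ± 3.54 in wild type, and the other 3 genes had wild type means from 5.21 to 9.40 per kb. The order of the means was the same in both genotypes. In wild type the ranges of neighbours in this order did not overlap from Eya2 down to Eya1. Six2 and Eya2 overlapped, as did each neighbouring pair from Eya1 down. Divided by the length of 1 transcript, Eya2 came before Six2 and Six3 before Six6, and the rest of the order was kept.

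**Figure D2:**
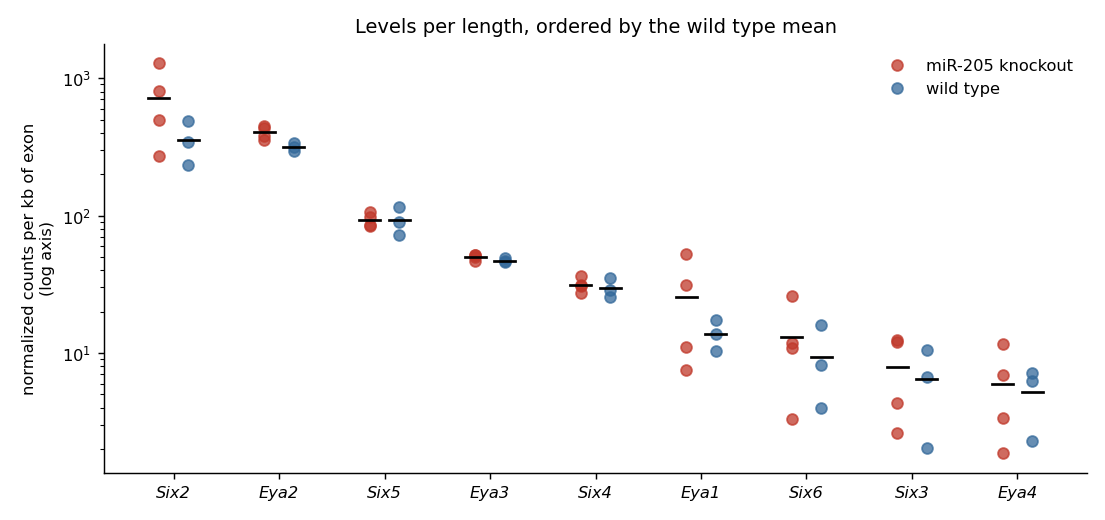
Normalized counts per kb of exon (log axis) in each knockout (red) and wild type (blue) library, with black lines at the group means. Six2 and Eya2 stand highest, and the 4 lowest genes spread most between libraries on this scale.

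The comparison of knockout with wild type asked whether these genes change without miR-205. By limma-trend on log2(normalized count + 1), with Benjamini-Hochberg adjustment over 15029 tested genes, 0 of these 9 had an adjusted p under 0.1. The background was 0% of all tested genes. At an unadjusted p under 0.05, Eya2 alone passed of the 9 genes, and 9.77% of all tested genes did (5.44% with higher values in knockout). The mean log2 value of all 9 genes was higher in knockout, against 51.7% of all tested genes, and the median difference was 0.28 for the 9 genes against 0.01 for all. Without knockout replicates 1 and 2, 5 of the 9 means were higher in knockout, and in the 4 libraries over 10000000 reads 2 were. Without knockout replicate 1 alone 5 were, and without wild type replicate 2 alone 6 were.

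**Figure D3:**
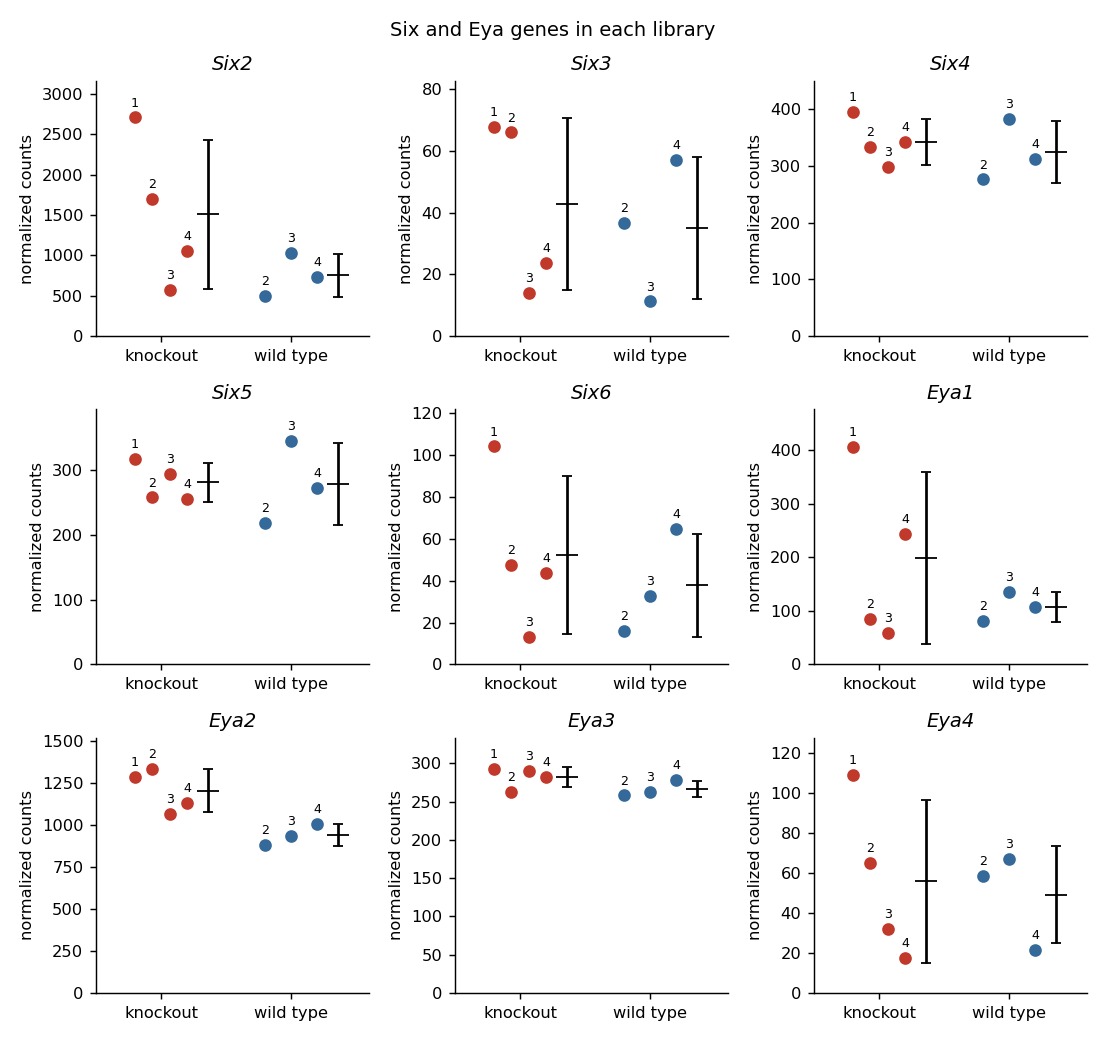
Normalized counts of each gene in every library (points, with the replicate number), knockout left and wild type right, with mean and SD (black). The groups do not overlap for Eya2, and they overlap for the other 8 genes.

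Eya2, the most abundant Eya gene here, encodes a coactivator expressed in cranial placodes and in muscle. It had 1284, 1330.1, 1062 and 1129 normalized counts in knockout replicates 1 to 4, and 878, 935 and 1004 in wild type replicates 2, 3 and 4. Every knockout library lay above every wild type library, as in 4.70% of all tested genes. The fold of knockout over wild type was 1.28 (95% interval 1.09 to 1.49), a log2 difference of 0.35 (SE 0.10). Limma-trend gave an unadjusted p of 0.00590, rank 238 among 15029 genes, and an adjusted p of 0.370. The two-sided exact permutation p was 0.0571, the smallest that 4 against 3 libraries can give. In the authors' deposited table Eya2 had a log2 fold change of 0.35 and an adjusted p of 0.0734, which passes 0.1, as did 2.83% of the 11933 genes with an adjusted p there (1.43% higher in knockout). None of the other 8 genes passed in the authors' deposited table, where Six3 and Six6 have no adjusted p. DESeq2 on recovered reads gave an adjusted p of 0.135 (1.52% of genes called) and edgeR's quasi-likelihood test 0.398 (0% called), so that Eya2 was called in the authors' table and not by the tests run here.

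The 2 highest values of Eya2 were in knockout replicates 1 and 2. These libraries also had the lowest sums of the 8 surface ectoderm markers, at 21816 and 23551 normalized counts, against 35518 and 29459.7 in knockout replicates 3 and 4 and 31289.6 to 39952 in wild type. Their mesenchyme, muscle, endothelial and macrophage marker sums were the 2 highest of the 7 libraries. Without both, the log2 difference of Eya2 was 0.22 (95% interval -0.01 to 0.46, adjusted p 0.789 by limma-trend). In the 4 libraries over 10000000 reads it was 0.18 (95% interval -0.07 to 0.42). The part of these markers or of depth in the difference of Eya2 was not tested.

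Eya2 made up most of the Eya messages per length in every library. Its share of the summed counts per kb of the 4 Eya genes was 78.9%, 87.5%, 85.2% and 82.1% in knockout replicates 1 to 4, and 82.7%, 81.6% and 83.9% in wild type. The groups overlapped in this share. The summed counts per kb were 421 to 549 in knockout and 358 to 404 in wild type, and the groups did not overlap in that sum, most of which is Eya2. Eya3, the next by group mean, had 9.06% to 12.2% of the sum in knockout and 12.1% to 12.7% in wild type. In knockout replicate 1 Eya1 was slightly above it, with 9.50% against 9.46%.

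Eya3 is expressed widely and its phosphatase has been studied in the DNA damage response. It had 293, 263, 290.0 and 282 normalized counts in knockout and 258, 263 and 278 in wild type. These 7 values lay within 1.14-fold of each other, and the SD of its log2 values was 0.07. Of 2928 tested genes with a mean within 1.5-fold of its own, 0.581% had a smaller SD. Its log2 difference was 0.08 (95% interval -0.20 to 0.37), and the upper bound is a fold of 1.29. Eya3 carries the weaker seed match shown above.

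Eya1, whose loss in mice disturbs ear and kidney, had 407, 85.7, 58.3 and 244 normalized counts in knockout, against 80.6, 136 and 107 in wild type. Knockout replicates 1 and 4 were above and knockout replicate 3 below all wild type libraries, so the knockout group spread 6.98-fold and the wild type group 1.69-fold. The log2 difference was 0.50 (SE 0.65; limma-trend, adjusted p 0.818), and without knockout replicate 1 it was 0.02. Eya4, a gene of hearing and heart function in humans, had 109, 64.9, 31.8 and 17.5 in knockout, against 58.6, 67.1 and 21.5 in wild type. Both its highest and its lowest value were in knockout libraries. Its log2 difference was 0.03 (SE 0.64). Eya1 and Eya4 were both highest in knockout replicate 1, but knockout replicate 4 held the second highest value of Eya1 and the lowest of Eya4.

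Six2, which keeps kidney progenitors undifferentiated and is also expressed in facial mesenchyme, had the largest log2 difference of the 9 genes. It had 2712, 1702, 573 and 1058 normalized counts in knockout, against 493, 1030.0 and 732 in wild type. Knockout replicates 1, 2 and 4 were above all wild type libraries and knockout replicate 3 was among them. The log2 difference was 0.85 (SE 0.57; 95% interval -0.53 to 2.22; limma-trend, adjusted p 0.647), and the two-sided exact permutation p was 0.229. Of 2010 tested genes with a mean within 1.5-fold of that of Six2, 99.4% had a smaller SD of log2 values than its 0.87. Without knockout replicates 1 and 2 the log2 difference was 0.11, and in the libraries over 10000000 reads it was -0.16.

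The sums of the 8 mesenchyme markers were 15164, 13148, 10711 and 11103 normalized counts in knockout, against 10457, 9412 and 11395 in wild type. Knockout replicates 1 and 2 were highest here too, as for Six2, while the sums spread 1.61-fold over the 7 libraries and Six2 spread 5.50-fold. The same 2 libraries also had the highest muscle, endothelial and macrophage marker sums. Within wild type, replicate 3 had the highest value of Six2, 1030.0, and the lowest mesenchyme sum, 9412. Of the listed markers, Col1a1, Col1a2, Pdgfrb, Postn and Lum were lowest in that library within wild type. Pdgfra and Prrx1 lay between the other wild type values, and Twist1 was highest there, at 796, as was Six2. Over all libraries Twist1, like Six2, was highest in knockout replicate 1, at 879. All 8 mesenchyme markers had reads in every library, and the mean log2 values of 6 were higher in knockout and of 2 lower. Their part in the values of Six2 was not tested, and in RNA from captured tissue a change in the number of cells of a type and a change in RNA per cell cannot be told apart.

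Six3 and Six6 are related to each other and act in the forebrain and eye field, where Six3 represses Wnt genes together with Tle corepressors. Six3 had 67.7, 66.0, 14.1 and 23.6 normalized counts in knockout, against 36.6, 11.2 and 57.1 in wild type. Six6 had 104, 47.3, 13.3 and 43.8 in knockout, against 15.9, 32.7 and 64.5 in wild type. Both were highest in knockout replicate 1, and in wild type both were highest in replicate 4. The log2 difference was 0.28 (SE 0.69) for Six3 and 0.34 (SE 0.68) for Six6, with adjusted p of 0.911 and 0.883 by limma-trend. Their intervals, -1.26 to 1.82 and -1.18 to 1.87, were the widest of the 9 genes. Six3 had 13 to 61 reads and Six6 13 to 92 reads in a library, and the values within each group spread 4.07-fold or more. Both genes carry the weaker seed match shown above.

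Retina and optic cup markers (6 listed, all with a row) summed to 921 to 1352 normalized counts in knockout and 303 to 2309 in wild type, with the highest sum in wild type replicate 4. Of the 5 tested retina and optic cup markers, 2 had higher and 3 lower mean log2 values in knockout. Vsx1 was at 0 in 6 of the 7 libraries. Lens markers (6 listed) summed to 315 to 2228 in knockout and to 4145, 158 and 313 in wild type replicates 2, 3 and 4. All 5 tested lens markers had higher mean log2 values in knockout. Foxe3, a gene that defines early lens, was at 0 in all but wild type replicate 2. Six3 also overlaps the antisense transcripts Six3os1 over 106 nt of exon and Gm28528 over 168 nt, and Six3os1 was above Six3 in each library, with 44.6 to 157 normalized counts in knockout and 27.5 to 119 in wild type. Gm28528 had 0 to 0.875 in knockout and 0 to 1.22 in wild type. In the same way Six6 overlaps a gene on the other strand over 192 nt. Whether counting used strand is not stated in the labels, so reads from these stretches cannot be assigned to 1 gene.

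Six4 and Six5 varied less than Six2, Six3, Six6, Eya1 and Eya4, and about as much as other genes of like level. The SD of log2 values was 0.19 for Six4 and 0.22 for Six5. Tested genes with a mean within 1.5-fold of theirs had median SDs of 0.22 and 0.24. Six4, which acts in muscle and kidney development, had 395, 333, 298 and 342 normalized counts in knockout, against 276, 383 and 312 in wild type. Six5 had 318, 258, 294 and 255 in knockout, against 218, 345 and 272 in wild type. For both genes wild type replicate 2 was the lowest library. The log2 difference was 0.09 (95% interval -0.26 to 0.43) for Six4 and 0.03 (95% interval -0.36 to 0.43) for Six5, with adjusted p of 0.873 and 0.961 by limma-trend. Neither gene carries a seed match in its longest 3′ UTR, although that of Six4 is long.

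**Figure D4:**
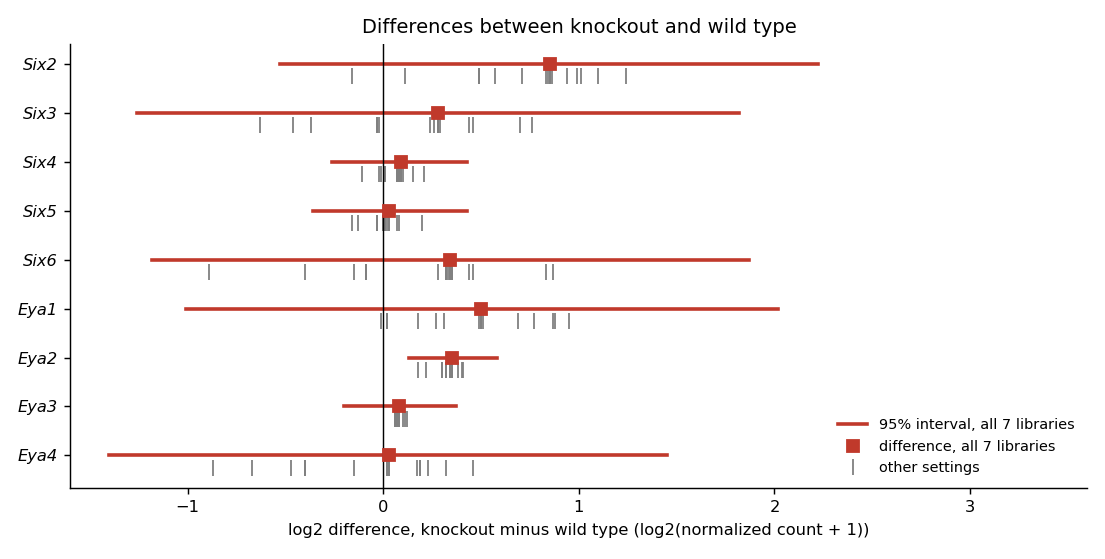
Log2 difference of knockout minus wild type for each gene (squares, log2(normalized count + 1)) with its 95% interval (bars), and the difference under each of the 18 other settings (grey ticks). The interval of Eya2 lies above 0, and the intervals of the other 8 genes include 0.

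Family members that lie near each other in the genome were compared in their pattern over libraries. Six2 and Six3 are 55.0 kb apart on chromosome 17. Six2 in wild type was highest in replicate 3, where Six3 was lowest. The root mean square difference between their centred log2 values over the 7 libraries was 0.911, against 0.557 for Six2 and Six6, which are on different chromosomes. Six4 and Six6, both on chromosome 12 and 154.7 kb apart, differed by 0.841. The closest pair was Six4 and Six5, at 0.132, followed by Eya3 with Six4, at 0.168. This measure favours genes that vary little.

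**Figure D5:**
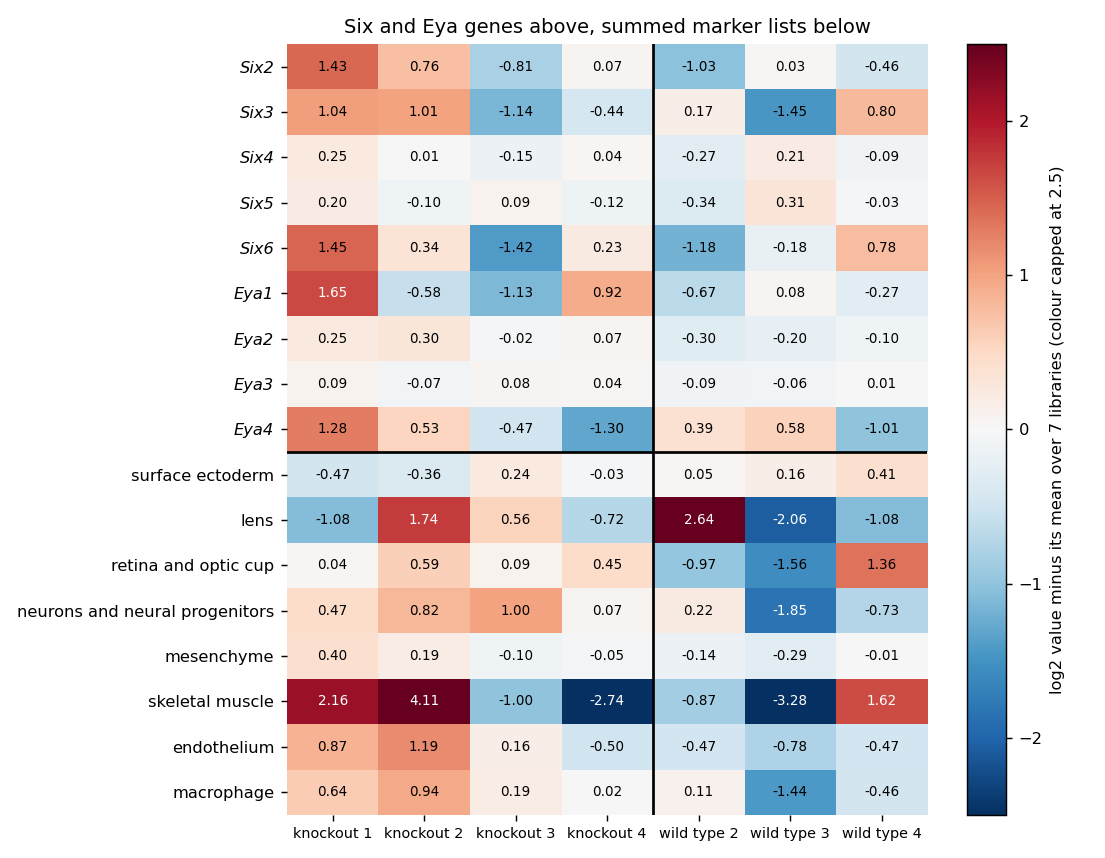
Log2 value of each gene (above the line) and of each summed marker list (below it) minus its mean over the 7 libraries, knockout left and wild type right. Knockout replicate 1 is above the mean for all 9 genes and knockout replicates 1 and 2 are lowest for surface ectoderm markers.

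Tested genes whose centred log2 values were nearest to those of each family member were named by the same measure over 7 libraries. Unnamed clones, predicted genes, pseudogenes and genes without an annotated type were left out. Nearest to Eya2 were the kinase gene Snrk (0.0541) and Asap2 (0.0614), and nearest to Eya3 were Dcaf8 (0.0267) and Pcid2 (0.0324). Nearest to Six2 were Lgals3bp (0.295) and the semaphorin receptor gene Plxnd1 (0.322). Six4 was nearest to Gabpa (0.0535), and Six5 to Tbc1d7 (0.0711) and Nmi (0.0738). Six3 was nearest to Pcdhb22 (0.246) and Pex5l (0.272), Six6 to Otor (0.272) and Frmd3 (0.408), Eya1 to Pgr (0.433) and Sfxn5 (0.441), and Eya4 to Slc26a1 (0.280) and Emx2os (0.376). For Eya1, the nearest gene still differed by 0.433, against a spread of 0.904 for Eya1 itself.

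Partners, corepressors and reported targets of these proteins were followed as a list of 34 genes, of which 28 passed the filter on low values. By limma-trend 0 of these had an adjusted p under 0.1. At an unadjusted p under 0.05 there were 3 (2 higher and 1 lower in knockout), while 9.77% of all tested genes passed it. By edgeR's quasi-likelihood test there was 1, against 9.44% of all tested genes, and by DESeq2 there were 4, against 10.2%. In all, 19 of the 28 had higher and 9 lower means in knockout, against 51.7% of all tested genes higher. Their median log2 difference was 0.09, against 0.01 over all tested genes.

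The smallest p in the list belonged to Sobp, which encodes a protein known in flies for binding Sine oculis, the founding protein of the family. Sobp had 97.0, 84.6, 85.8 and 63.9 normalized counts in knockout, against 72.0, 31.8 and 39.3 in wild type. The groups overlapped, since knockout replicate 4 was below wild type replicate 2. The log2 difference was 0.85 (SE 0.34; limma-trend, adjusted p 0.470). Pax6, a gene required for eye and lens formation, averaged 1295 ± 425 in knockout and 1934 ± 248 in wild type (SD, n = 4 and 3). Its log2 difference was -0.63 (adjusted p 0.493 by limma-trend). Pax6 had 1037, 832, 1646 and 1665 normalized counts in knockout replicates 1 to 4, against 1659, 2003 and 2141 in wild type. Knockout replicates 1 and 2 were lowest, and the groups overlapped. The submitters used Pax6 and Krt5 to judge libraries, and Krt5 averaged 5801 ± 1336 in knockout and 7221 ± 994 in wild type. Krt5 had 4279, 5646, 7537 and 5741 normalized counts in knockout, against 6627, 6668 and 8368 in wild type.

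Gna12, whose G protein has family relatives that bind Eya2 in the cytoplasm, averaged 2673 ± 98.2 in knockout and 2394 ± 173 in wild type, a log2 difference of 0.16. Baz1b, a kinase for the histone tail residue that Eya phosphatases act on, averaged 1122 ± 54.6 in knockout and 1259 ± 84.6 in wild type, a log2 difference of -0.17. The groups overlapped for both genes. The Dach genes, corepressors that Eya proteins can turn into activators, had log2 differences of 0.39 (Dach1, SE 0.24) and 0.06 (Dach2, SE 0.32). The Tle corepressors Tle1, Tle2, Tle3 and Tle4 had log2 differences of 0.09, 0.18, 0.09 and -0.01.

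The tissue label was checked against 8 surface ectoderm markers, among them Krt5, Krt14 and Trp63, all with reads in every library. Their sum was 21816 to 35518 normalized counts in knockout and 31289.6 to 39952 in wild type, and all 8 had lower mean log2 values in knockout. Marker sums of other cell types stood beside them. Neuronal markers (8 of 8 higher in knockout) summed to 5298 to 10136 in knockout and 1402 to 5891 in wild type, and Sox1 was at 0 in 1 wild type library. Muscle markers (7 of 8 higher) summed to 86.6 to 10103 in knockout and 59.3 to 1803 in wild type, with Myf5, Myh3 and Myog at 0 in some libraries. Endothelial markers (6 of 6 higher) summed to 517 to 1672 in knockout and 426 to 529 in wild type, and macrophage markers (6 of 6 higher) to 538 to 1025 in knockout and 195 to 576 in wild type. Knockout replicate 2 had the highest muscle, endothelial and macrophage sums, while knockout replicate 1 had the highest level of 7 of the 9 genes.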

How the data were processed

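Per the submitters' processing notes, TopHat2 2.0.9 placed the reads on GRCm38, HTSeq counted them per gene and DESeq2 tested the counts. The series' design text adds a false discovery rate of 0.1 and the removal of the library of wild type replicate 1, which was not analysed here. The deposited table holds normalized counts (a signal: the authors divided the reads of a library by its size factor), the authors' log2 fold changes of knockout over wild type, and the authors' p-values and adjusted p-values. Reads were recovered by setting the lowest value above 0 of a library to 1 read; 100% of the values above 0 came out whole within 0.01 read.

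The main test was limma-trend (limma 3.58.1, R 4.3.3, robust moderation, no covariates) on log2(normalized count + 1). A mean of at least 10 was required, which 15029 genes reached. That scale understates the change of low genes. Beside it stand two-sided exact permutation tests over libraries, edgeR 4.0.16 (quasi-likelihood, TMM) and DESeq2 1.42.0 on recovered reads, 2 other pseudocounts, other filters, TMM scaling and fits without libraries. Nothing in the labels says that a replicate number marks a shared litter or batch, so the numbers were not taken to pair libraries. Of the libraries with the same replicate number, deviations from the group means correlated at 0.0965, 0.111 and -0.011. With groups of 4 and 3 libraries, these values cannot show whether the numbers mark pairs.

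The 9 members, the marker lists and the list of partners were chosen with earlier results of these data known. Named beside the members were the 4 partners with the smallest p, the 2 genes nearest in pattern to each member (1 of them is not reported here), and Pax6 and Krt5; the Dach and Tle genes were named after their values were seen. GENCODE M21 (GRCm38) gave lengths, 3′ UTRs and positions.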

Additional observations from a re-analysis of the deposited data

How the results depend on the processing

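Under all 18 other settings 0 of the 9 genes had an adjusted p under 0.1. The direction of Eya2 and Eya3 was kept in each of them, with log2 differences of 0.18 to 0.41 for Eya2 (adjusted p 0.135 to 0.789) and 0.06 to 0.12 for Eya3. The count of all genes called, 0 of 15029 by limma-trend and by edgeR's quasi-likelihood test (1469 by limma-trend at an unadjusted p under 0.05), was 2 under the authors' filter, 223 by DESeq2, 3 without knockout replicates 1 and 2, 38 in the libraries over 10000000 reads, and 0 to 84 when 1 library was left out, with 84 without wild type replicate 2. Of the partner genes 1, Cryaa, passed in the libraries over 10000000 reads, with a log2 difference of 4.04. Wild type replicate 2, left out there, had 2342 normalized counts of Cryaa, against 16.3 and 12.2 in wild type replicates 3 and 4. Over all 7 libraries the log2 difference of Cryaa was 1.5 (SE 2.19, adjusted p 0.843 by limma-trend).

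Directions turned as follows; the causes were not tested. In the libraries over 10000000 reads the log2 differences were -0.16 for Six2, -0.46 for Six3, -0.11 for Six4, -0.16 for Six5, -0.89 for Six6, -0.01 for Eya1 and -0.67 for Eya4. Without knockout replicates 1 and 2 they were -0.63 for Six3, -0.01 for Six4, -0.40 for Six6 and -0.87 for Eya4. With 1 library left out they ranged from -0.37 to 0.76 for Six3, -0.02 to 0.21 for Six4, -0.13 to 0.20 for Six5, -0.15 to 0.87 for Six6 and -0.47 to 0.46 for Eya4. With a replicate block over replicates 2 to 4, 3 genes of all and 0 of the 9 passed, and the differences were -0.03 for Six3, -0.03 for Six5, -0.09 for Six6 and -0.40 for Eya4. The same libraries without the block, a setting chosen after seeing the data, gave the same 4 values to 2 decimals and called 2 genes. With 1 library of each genotype per number, the block cannot change a difference of means, so these equal values are no check. Without the block, these libraries are those of the fit without knockout replicate 1, and the results are the same. The other settings counted above thus hold that fit under 2 names. Not every library correlated best with its own number: knockout replicate 2 deviated most like wild type replicate 4 (0.147).

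The lowest depth behind a value was 13 reads, for Six3 and Six6.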
